A study of Rattus norvegicus with 17 samples.

Results

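The keratins of the epidermis, the outer root sheath and the wounded skin edge were followed over 17 skin arrays of hairless rats. The members were 10 listed genes, Krt1, Krt2, Krt5, Krt6a, Krt14, Krt15, Krt16, Krt17, Krt79 and Krt80, and a probe was taken as a member's when its sequence name led to that gene in RefSeq. Under current symbols 8 genes had a probe. Krt6a was read through the entry that RefSeq now names Krt6c and lists with Krt6a as an older name, so it is called Krt6c below. The genome also holds a separate gene now named Krt6a, and a near-identical copy could share the signal of these probes. Krt79 had no named probe and is not analysed here. The 9 measured genes had 11 of the 30367 probes, and all 11 were among the 20710 probes kept because they were well above background on at least 8 arrays. All 11 were well above background on all 17 arrays.

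Keratins are the intermediate filament proteins of epithelial cells, and each filament is built from pairs of a type I and a type II chain. Krt5 and Krt14 are the pair of the dividing basal layer. Cells that leave the basal layer switch to Krt1 and its type I partner, and Krt2 follows in the upper layers. Krt6 chains, Krt16 and Krt17 belong to the outer root sheath and related follicle layers, and are induced in epidermis after wounding and in hyperproliferation.

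Of the members measured, 3 have an entry in the RefSeq promoter table of the assembly GRCr8, all of them type II genes. The last 120 bases before their annotated start are shown because the members in the table differ there in the exact letters TATATAA. They lie on the minus strand at chr7:134730570-134730689 (Krt5), chr7:134682754-134682873 (Krt6c) and chr7:134826737-134826856 (Krt2), are written 5′ to 3′, and have the motif in capitals.
Krt5: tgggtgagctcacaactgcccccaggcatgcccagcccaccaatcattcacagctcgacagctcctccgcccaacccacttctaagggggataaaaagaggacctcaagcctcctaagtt
Krt6c: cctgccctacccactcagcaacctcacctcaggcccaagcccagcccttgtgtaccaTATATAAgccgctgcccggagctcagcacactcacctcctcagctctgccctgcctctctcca
Krt2: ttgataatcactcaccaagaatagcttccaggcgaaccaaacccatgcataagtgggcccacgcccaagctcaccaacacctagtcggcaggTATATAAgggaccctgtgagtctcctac
Both strands were searched for the motif TATATAA, for the shorter TATA box letters TATAAA, and for the AP-1 letters TGANTCA, none of which contains another. TATATAA began 63 bases before the start of Krt6c and 28 bases before that of Krt2, and none of the motifs was found in the window of Krt5. The search took exact letters only. It does not count similar A and T rich stretches, such as gataaaaag near the start of Krt5. Among 33469 such windows in the table the first motif was present in 1.7%, the TATA box letters in 6.66% and the AP-1 letters in 3.01%. In the same assembly the type I members lie on chromosome 10 and the type II members on chromosome 7. Krt16 and Krt17 are direct neighbours among protein-coding genes, as are Krt2 and Krt1.

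The rats were male CD hairless animals aged 2 to 3 months at the start. Exposure to 94 GHz millimetre waves took 3 h a day, 3 days a week, and lasted 5.5 months; the other group was sham exposed. The comparison asks whether this exposure changed gene expression in skin. There were 9 exposed and 8 sham arrays, each read in 1 colour from RNA of a whole skin explant, while the design names 6 exposed and 8 sham animals. Some exposed arrays may therefore share an animal, and p-values would then be too small. The labels tie no array to an animal, so a p-value reflects array-to-array spread only, part of which may be technical. In whole skin, fewer cells of a type and less RNA per cell cannot be told apart. Per array the 75th percentile signal was 1077 to 1703, 66.7% to 70.8% of probes were well above background, and the number of arrays limits the precision. Keratinocyte markers outside the keratins were present throughout: all 9 of 14 that were measured, among them Perp and Lgals7, were well above background on 17 arrays. Array numbers below only name arrays within a group.

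No measured keratin passed the limma test of exposed against sham skin. In limma with Benjamini-Hochberg adjustment, 0 of 20710 probes, or 0%, had an adjusted p under 0.05. At an unadjusted p under 0.05 there were 943, or 4.55%. Exposed arrays were higher for 123 of them and lower for 820, and none was a probe of a member. Among all 20710 probes the groups failed to overlap in 1. The values that follow are log2 signals relative to the 75th percentile of each array. They are set side by side for 1 probe only, since probes differ in brightness. Differences are exposed minus sham on the log2 scale, with 95% intervals from limma.

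In the basal layer, Krt5 and Krt14 had nearly the same level in both groups. Krt5 ran from 4.94 over a median of 5.22 to 5.53 on exposed arrays, and from 5.03 over 5.26 to 5.44 on sham arrays. The sham values lay inside the exposed range. The difference was -0.01 (interval -0.19 to 0.17, limma adjusted p = 0.996), and its sign turned under every scaling tried. Krt14 ran from 6.80 over 7.15 to 7.42 on exposed arrays and from 6.95 over 7.18 to 7.36 on sham arrays. Here too the sham values lay inside the exposed range, and the difference was -0.05 (interval -0.21 to 0.10, limma adjusted p = 0.983), turning to 0.04 under quantile scaling.

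Krt15, a type I chain of basal keratinocytes and of the hair follicle bulge, ran from 5.67 over 6.04 to 6.39 in exposed skin. In sham skin it ran from 5.78 over 6.31 to 6.57. The groups overlapped, but 4 sham arrays lay above every exposed array. The difference was -0.21 (interval -0.47 to 0.05, limma adjusted p = 0.983). On slide 2 alone it was 0.06.

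Of the suprabasal keratins, Krt1 ran from 6.78 over 7.43 to 7.81 on exposed arrays and from 6.79 over 7.54 to 7.80 on sham arrays. These ranges nearly coincide, and each group held 1 array well below its others. The difference was -0.08 (interval -0.37 to 0.22, limma adjusted p = 0.985), turning to 0.04 under quantile scaling. Krt2, a keratin of the late differentiating layers, ran from -5.29 over -4.40 to -2.73 on exposed arrays and from -4.23 over -4.00 to -2.79 on sham arrays. Of the exposed arrays 5 lay below every sham array, and 1, array 4, lay above them all. The difference was -0.49 (interval -1.10 to 0.11, limma adjusted p = 0.983). It was -0.69 without exposed array 4, -0.32 with another background correction and -0.25 with that correction and quantile scaling. Without sham array 1 it was -0.35.

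Krt16, a wound keratin, varied most among the members. It ran from -2.37 over -0.62 to 0.40 on exposed arrays and from -4.10 over -1.40 to -0.69 on sham arrays. The groups overlapped, although 5 exposed arrays lay above every sham array and 3 sham arrays lay below every exposed one. Over all 17 arrays Krt16 covered a 22.5-fold range, and its SD of 1.15 was larger than that of 98.3% of kept probes, whose median SD was 0.19. The difference was 0.95, or 1.93-fold (interval -0.09 to 1.98, limma adjusted p = 0.983). Without sham array 6, the lowest of all, it was 0.63.

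Krt6c, the type II partner class of Krt16 and Krt17, ran from 4.56 over 5.37 to 5.88 in exposed skin and from 3.90 over 5.08 to 5.51 in sham skin. Here 3 exposed arrays lay above every sham array and 2 sham arrays lay below every exposed one. The difference was 0.37 on this brightest probe (interval -0.08 to 0.82, limma adjusted p = 0.983). Its other probes gave 0.44 and 0.30. Without sham array 6 the difference was 0.23, and on slide 2 alone it was -0.10. Krt17 ran from 5.81 over 5.90 to 6.25 in exposed skin and from 5.31 over 5.99 to 6.20 in sham skin. The median was thus lower and the mean higher in exposed skin, with a difference of 0.10 (interval -0.13 to 0.33, limma adjusted p = 0.983). Without sham array 6 it was 0.02.

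Krt80, a type II keratin of differentiating epithelia, ran from -0.99 over -0.27 to 0.24 on exposed arrays and from -0.64 over -0.37 to 0.20 on sham arrays. The sham values lay inside the exposed range. The difference was -0.06 (interval -0.38 to 0.26, limma adjusted p = 0.986), and with slide as a block it was 0.02.

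**Figure D1:**
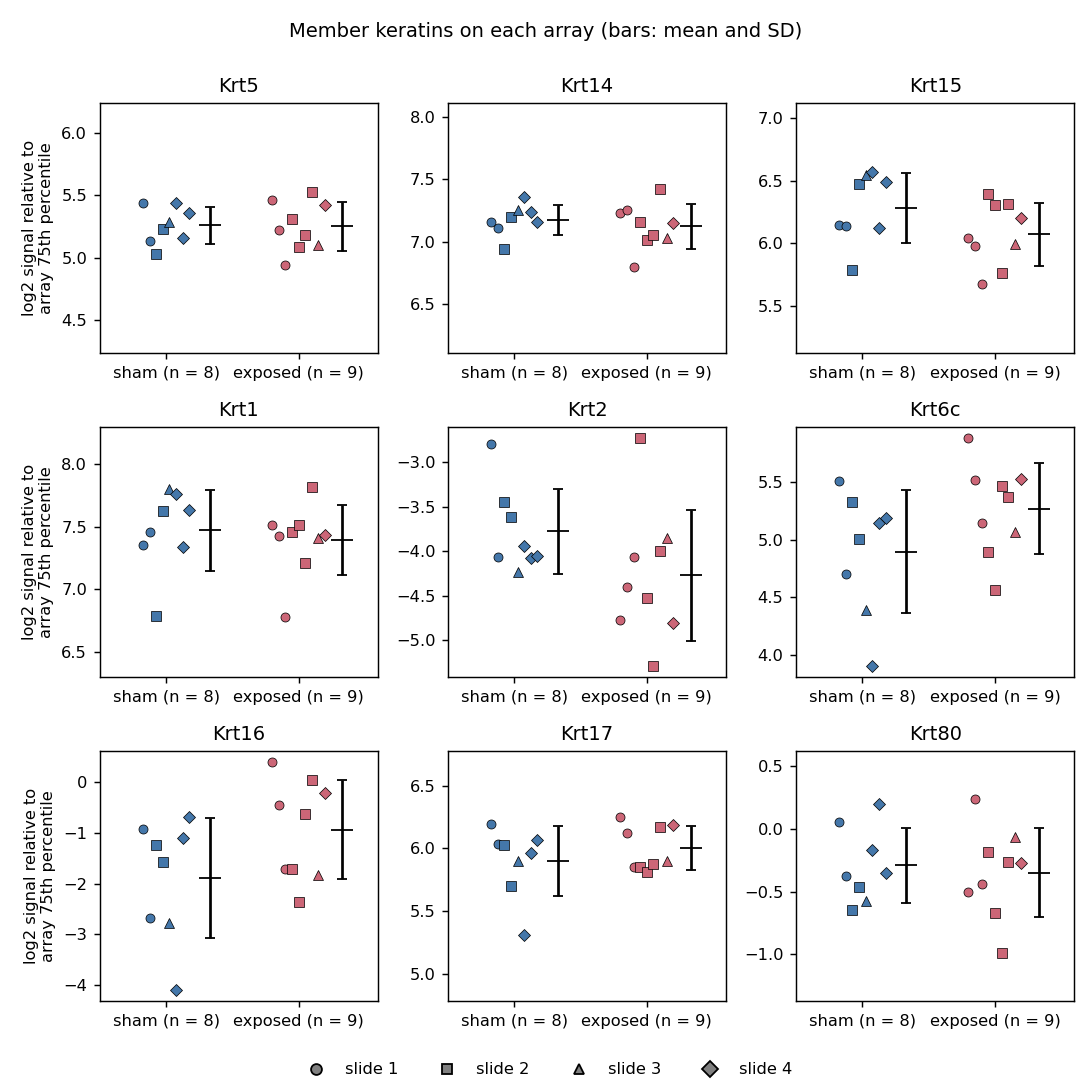
Log2 signal relative to the array's 75th percentile for each measured keratin (vertical axes differ), by group, with 1 point per array, shapes for slides, and bars for the mean and SD. The groups overlap in all 9 panels, as they do for all but 1 of the 20710 kept probes. Krt16 covers the widest range, from -4.10 to 0.40.

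**Figure D2:**
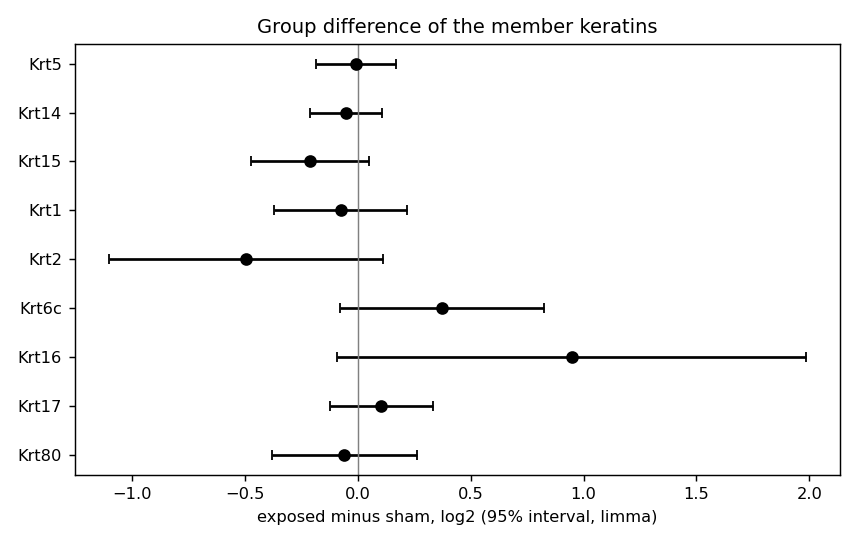
Difference between exposed and sham arrays on the log2 scale with the 95% interval from limma, for 9 exposed and 8 sham arrays. Every interval includes 0, and those of Krt16 and Krt2 are the widest.

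The arrays came from 4 slides, each holding both groups. Slide 1 held 3 exposed and 2 sham arrays, slide 2 held 4 and 2, slide 3 held 1 of each, and slide 4 held 1 and 3. Between slides limma called 0 of 20710 probes, or 0%, at an adjusted p under 0.05, and 1844, or 8.9%, at an unadjusted p under 0.05. Slide held 2.96% of the variance of Krt2 and 28.3% of that of Krt80, the lowest and highest shares among the main probes, and the smallest adjusted p of a member was 0.689 in limma. Within slides 1 to 4 the difference of Krt16 was 1.21, 0.24, 0.96 and 1.75. That of Krt2 was -0.99, -0.61, 0.37 and -0.78, so slide 3, with 1 array per group, went the other way.

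The wound keratins rose and fell together from array to array. Over 17 arrays Krt6c and Krt16 had a Pearson r of 0.953 and a Spearman rho of 0.924, each with a permutation p of 1e-05, the smallest that 100000 resamples can give, and an adjusted p of 9e-05 over the 9 pairs computed. Without the 2 arrays farthest from the Krt6c median r was 0.907, and within slide 2 it was 0.885 (exact p = 0.0208, 6 arrays). Krt6c and Krt17 had r = 0.81 (permutation p = 1.4e-04, adjusted 4.2e-04) and rho = 0.762 (permutation p = 6.3e-04, adjusted 0.00283). Krt16 and Krt17 had r = 0.808 (permutation p = 2.5e-04, adjusted 5.6e-04) and rho = 0.718 (permutation p = 0.00152, adjusted 0.00342). Sham array 6, lowest in all of these genes, carried part of this: without the 2 farthest arrays r was 0.694 for Krt6c with Krt17 and 0.594 for Krt16 with Krt17. Within slide 2 these pairs gave 0.581 (exact p = 0.228) and 0.729 (exact p = 0.1). After group and slide were taken out, r was 0.961, 0.8 and 0.861 for the 3 pairs in the order given.

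The basal partners Krt5 and Krt14 also moved together, with r = 0.806 (permutation p = 1.1e-04, adjusted 4.2e-04) and rho = 0.726 (permutation p = 0.00133, adjusted 0.00342). Without the 2 farthest arrays r was 0.669, within slide 2 it was 0.973 (exact p = 0.00278), and under quantile scaling it was 0.872. The relations of Krt15 with them depended on the scaling. Krt14 and Krt15 had r = 0.661 (permutation p = 0.00358, adjusted 0.00644) and rho = 0.576 (permutation p = 0.0174, adjusted 0.0313), but r was 0.40 under quantile scaling (permutation p = 0.112), 0.573 without the 2 farthest arrays and 0.578 within slide 2 (exact p = 0.233). Krt5 and Krt15 had r = 0.568 (permutation p = 0.0183, adjusted 0.0275) and rho = 0.547 (permutation p = 0.0251, adjusted 0.0377). This fell to 0.481 under quantile scaling, 0.446 without the 2 farthest arrays and 0.501 within slide 2 (exact p = 0.315).

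No relation was detected for the other planned pairs. Krt5 with Krt16 had r = 0.294 (permutation p = 0.253, adjusted 0.326) and rho = 0.461 (permutation p = 0.0638, adjusted 0.0821), with r rising to 0.605 without sham array 6. Krt80 with Krt1 had r = 0.162 (permutation p = 0.533, adjusted 0.599) and rho = -0.044 (permutation p = 0.87). Krt1 with Krt2, neighbours on the chromosome and successive in the layers, had r = -0.058 (permutation p = 0.826) and rho = 0.044 (permutation p = 0.869).

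All 36 pairs were then computed, a choice made after seeing the data. Krt1 went with Krt15 and Krt14. With Krt15 its r was 0.863 and its rho 0.868 (permutation p = 2e-05 and 1e-05, adjusted over 36 to 2.4e-04 and 1.8e-04). With Krt14 its r was 0.833 and its rho 0.667 (permutation p = 2e-05 and 0.00443, adjusted 2.4e-04 and 0.0266). Without the 2 farthest arrays these r were 0.8 and 0.702, within slide 2 they were 0.829 (exact p = 0.0458) and 0.824 (exact p = 0.0514), and under quantile scaling they were 0.776 and 0.627. With Krt5, the other basal keratin, r was 0.695 and rho 0.596 (permutation p = 0.00129 and 0.0134), of which only r passed after adjustment (0.00663 and 0.0688). Without the 2 farthest arrays that r was 0.514, and within slide 2 it was 0.763 (exact p = 0.0875). Krt15 and Krt6c ran in opposite directions, with r = -0.571 and rho = -0.522 (permutation p = 0.0158 and 0.0342), which did not pass after adjustment (0.0632 and 0.123).

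**Figure D3:**
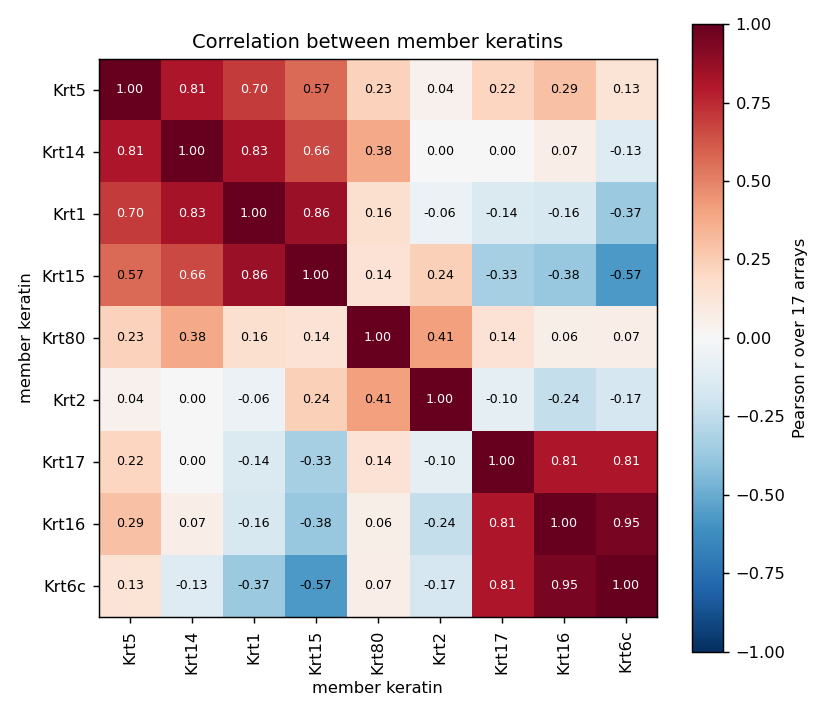
Pearson r over 17 arrays for each pair of the 9 measured keratins, in colour and in figures. Krt6c, Krt16 and Krt17 form a block with r from 0.81 to 0.95, and Krt1, Krt5, Krt14 and Krt15 another with r from 0.57 to 0.86.

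**Figure D4:**
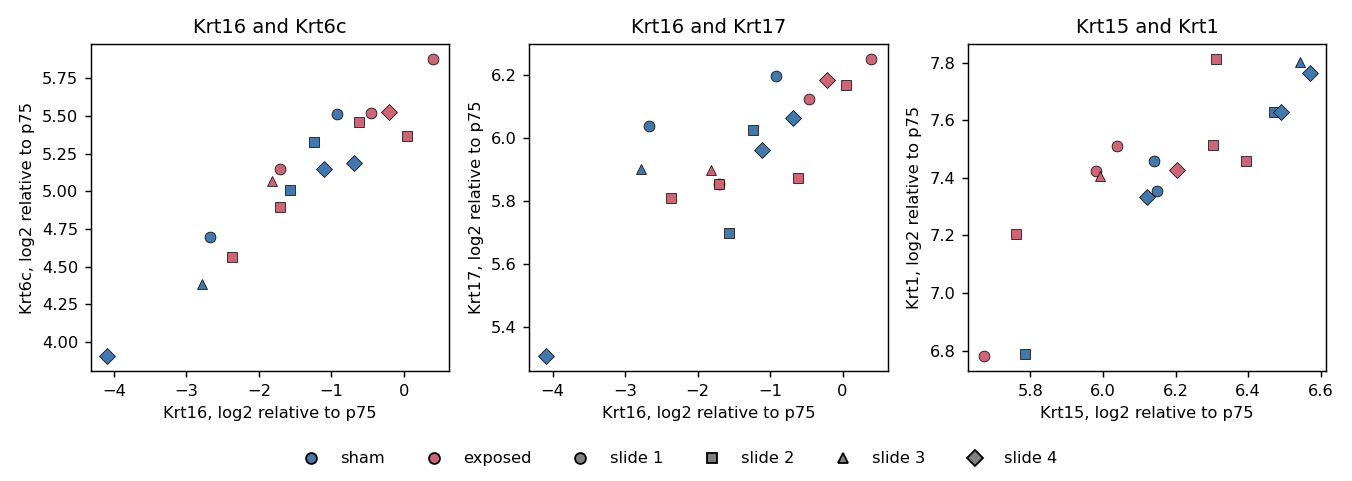
Log2 signals relative to the 75th percentile (p75) for Krt6c and Krt17 against Krt16, and for Krt1 against Krt15, with 1 point per array, colours for groups and shapes for slides. Sham array 6 is the lowest point in both panels of Krt16.

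Explants also differed in markers of other tissue parts, and the members were set against 8 marker scores, 72 relations in all, again after seeing the data. Adjusted over the 72, no Pearson r passed, and 4 Spearman rho did, of Krt15, Krt1 and Krt14 with the inner root sheath score and of Krt14 with the hair shaft score. Of the inner root sheath markers 6 of 8 were measured, and their mean log2 score ran from -3.77 over 1.13 to 2.11 on exposed arrays and from -7.91 over 0.46 to 2.33 on sham arrays. Of the hair shaft markers 10 of 14 were measured, with scores from -3.58 over 0.55 to 2.81 and from -5.76 over 0.49 to 3.03. Krt27, Krt72 and Krt73 of the inner root sheath were well above background on 16 arrays. Krt15 was lower where the inner root sheath score was higher, with r = -0.661 (permutation p = 0.00182, adjusted 0.0626) and rho = -0.743 (permutation p = 0.00126, adjusted 0.0302). Without the 2 arrays farthest from the median score, exposed array 4 and sham array 5, r was -0.721, and within slide 2 it was -0.766 (exact p = 0.0875). Under quantile scaling of Krt15 rho was -0.72.

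Krt1 and Krt14 were also lower there, with rho = -0.76 (permutation p = 7.7e-04, adjusted 0.0302; r = -0.605, permutation p = 0.0147, adjusted 0.176) and rho = -0.73 (permutation p = 0.00125, adjusted 0.0302; r = -0.511, permutation p = 0.0441, adjusted 0.212). For Krt5, the partner of Krt14, no relation was detected, with r = -0.281 (permutation p = 0.286, adjusted 0.527) and rho = -0.37 (permutation p = 0.143, adjusted 0.355). Without exposed array 4 and sham array 5, r of Krt1 and Krt14 was -0.78 and -0.806, and within slide 2 it was -0.64 (exact p = 0.164) and -0.657 (exact p = 0.163). These relations were not stable to the scaling of the keratin, since under quantile scaling of the keratin alone rho was -0.43 for Krt1 and -0.25 for Krt14. The scores were left as they were. Krt6c had r = 0.523 with the inner root sheath score (permutation p = 0.036) and rho = 0.515 (permutation p = 0.0368), which did not pass after adjustment (0.212 and 0.206). Krt16 had r = 0.371 (permutation p = 0.142, adjusted 0.318) and rho = 0.245 (permutation p = 0.342, adjusted 0.639). With the hair shaft score Krt14 had r = -0.622 (permutation p = 0.00839, adjusted 0.121) and rho = -0.696 (permutation p = 0.00262, adjusted 0.0472), and rho was -0.15 under quantile scaling of Krt14. Krt15 had r = -0.701 (permutation p = 0.00112, adjusted 0.0626) and rho = -0.635 (permutation p = 0.00705, adjusted 0.0846) with that score, and Krt1 had r = -0.713 (permutation p = 0.00261, adjusted 0.0626) and rho = -0.659 (permutation p = 0.00465, adjusted 0.067). Under quantile scaling of the keratin alone rho was -0.59 for Krt15 and -0.33 for Krt1. With the score of keratinocyte markers outside the keratins no member passed after adjustment. Krt5 had r = 0.642 (permutation p = 0.00426, adjusted 0.0767) and rho = 0.578 (permutation p = 0.0169, adjusted 0.135). Without the 2 arrays farthest from the median score that r was 0.50 (permutation p = 0.0591). Krt17 had the largest rho, 0.61 (permutation p = 0.0105, adjusted 0.108), with r = 0.373 (permutation p = 0.137, adjusted 0.318). Krt80 had r = 0.437 (permutation p = 0.0794, adjusted 0.286) and rho = 0.473 (permutation p = 0.0564, adjusted 0.266). Krt14 had r = 0.503 (permutation p = 0.0417, adjusted 0.212). Krt1 and Krt15 had r of 0.243 and 0.161 (permutation p = 0.338 and 0.544).

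Fat and muscle markers varied between explants as well. The adipocyte score, from 6 of 8 markers, ran from -0.36 over 0.25 to 0.67 on exposed arrays and from -1.30 over -0.45 to 1.39 on sham arrays. The skeletal muscle score, from 10 of 12 markers, ran from -3.07 over -0.32 to 5.44 and from -3.13 over -2.50 to 4.76. With the adipocyte score Krt14 had r = -0.545 (permutation p = 0.0233, adjusted 0.183) and rho = -0.598 (permutation p = 0.0132, adjusted 0.119). Without sham arrays 3 and 6 that r was -0.321. Krt15 had r = -0.499 (permutation p = 0.0412, adjusted 0.212) and rho = -0.436 (permutation p = 0.0825, adjusted 0.27). Within slide 2 its r was -0.844 (exact p = 0.0181), and without sham arrays 3 and 6, the farthest in score, it was -0.222. Krt1 had r = -0.543 (permutation p = 0.0255, adjusted 0.183) and rho = -0.422 (permutation p = 0.095, adjusted 0.274) with that score, -0.861 within slide 2 (exact p = 0.0347) and -0.199 without those arrays. Krt80 had r = -0.487 (permutation p = 0.0472, adjusted 0.212) and rho = -0.444 (permutation p = 0.0764, adjusted 0.267). For Krt6c, Krt16 and Krt17 r was positive, 0.385, 0.379 and 0.336 (permutation p = 0.126, 0.134 and 0.184). With the muscle score Krt5 had r = -0.482 (permutation p = 0.0508, adjusted 0.215) and rho = -0.471 (permutation p = 0.0582, adjusted 0.266). Krt1 had r = -0.432 (permutation p = 0.0796, adjusted 0.286) and rho = -0.38 (permutation p = 0.135, adjusted 0.351), and r was -0.725 after group and slide were taken out. The r was positive for Krt2 (0.225) and Krt6c (0.004).

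These marker lists also had higher means in exposed skin, and 0 of their genes passed in limma at an unadjusted or adjusted p under 0.05. The mean was higher for all 10 measured muscle markers (median difference 1.38), all 6 adipocyte markers (0.44), all 6 inner root sheath markers (0.67) and all 10 hair shaft markers (0.71). Genes of a list were read in the same explants, so their shared direction is not independent. Sham array 5 had the lowest inner root sheath and hair shaft scores of all arrays, -7.91 and -5.76. The median hair shaft score was 0.55 on exposed and 0.49 on sham arrays. The differences of these lists were not computed without sham array 5. The part of these tissues in the differences of the keratins between exposed and sham arrays was not tested.

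**Figure D5:**
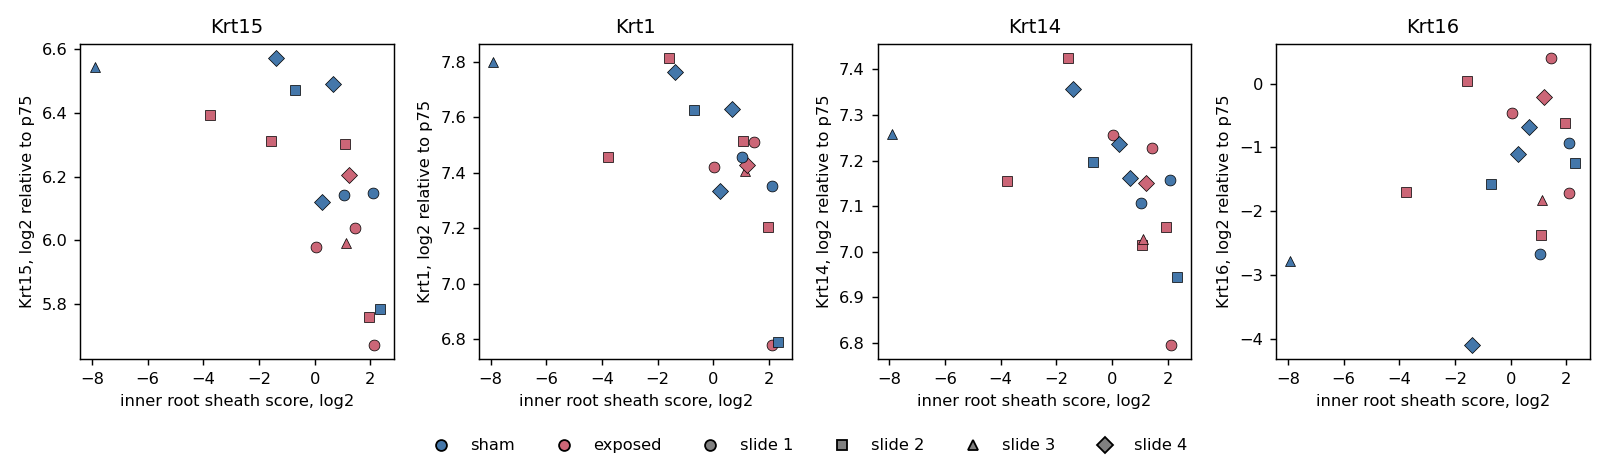
Log2 signal of Krt15, Krt1, Krt14 and Krt16 against the inner root sheath score (mean log2 deviation of 6 marker genes), with 1 point per array, colours for groups and shapes for slides. Sham array 5 has the lowest score, -7.91. The downward course of Krt15 was kept under quantile scaling of the keratin alone, while rho for Krt1 and Krt14 was -0.43 and -0.25 there.

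Among 11153 named genes outside the members, those most like Krt16 over the 17 arrays were Car2, a carbonic anhydrase (r = 0.892), Cask, a scaffold protein (r = 0.816), Duoxa1, a maturation factor of dual oxidase (r = 0.814), and Hbegf, an EGF receptor ligand (r = 0.802). For Krt14 they were Jph2 (r = 0.93), P3h2, a collagen prolyl hydroxylase (r = 0.908), Cyp2j4, a cytochrome P450 (r = 0.876), and Insr, the insulin receptor (r = 0.863). For Krt2 they were Rilpl1 (r = 0.72), Map3k2 (r = 0.708), Swt1 (r = 0.703) and Dcp1a, an mRNA decapping factor (r = 0.698). These were picked as the highest of all genes and are given as a description, since arrays share tissue makeup and scaling.

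The surroundings of the keratins were described by lists, in each of which 0 genes passed an adjusted p under 0.05 in limma. Over all 11167 named genes 4578 were higher and 6589 lower on average in exposed skin, with a median difference of -0.02. Of 18 wound and hyperproliferation genes 14 were measured, 10 higher and 4 lower in mean, with a median difference of 0.07. That median was 0.0092 without exposed array 1, 0.13 without sham array 1 and 0.0007 on slide 2 alone. On slides 1 and 4 alone it was 0.06 and 0.35. Defb4, a defensin, had a difference of 1.35 (interval -0.50 to 3.20) and was well above background on 8 arrays only, and Il1b, an inflammatory cytokine, had -0.38 (interval -0.99 to 0.22). Of 22 keratin regulators 18 were measured, 1 higher and 17 lower, with a median of -0.07, which was -0.04 without exposed array 3. Tfap2c, an AP-2 transcription factor, had -0.13 (interval -0.28 to 0.02) and Rarg, a retinoic acid receptor, had -0.09 (interval -0.20 to 0.03).

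Of 19 cornified envelope and barrier genes 9 were measured, 2 higher and 7 lower, with a median of -0.04, which was -0.11 without sham array 3 and 0.02 without exposed array 3. On slides 1, 2 and 4 alone that median was -0.21, 0.05 and 0.23, slide 4 holding 1 exposed array. Cnfn, a cornified envelope protein, had 0.13 (interval -0.11 to 0.37), and Casp14, a protease of terminal differentiation, had -0.16 (interval -0.45 to 0.13). Of 14 genes that anchor keratin filaments 8 were measured, 2 higher and 6 lower, with a median of -0.03, which was -0.06 without sham array 7 and 0.0061 without exposed array 3. The desmosomal cadherins Dsc3 and Dsg3 had -0.12 (interval -0.27 to 0.03) and -0.08 (interval -0.30 to 0.15).

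Of the 5 simple epithelial keratins 3 were higher and 2 lower, with a median of 0.14 that turned to -0.09 with another background correction, -0.20 without sham array 5 and -0.35 on slide 2 alone. Krt7 had -0.30 (interval -0.53 to -0.07, limma adjusted p = 0.983), and Krt18 had 0.22 (interval -0.35 to 0.78). Of 13 other epidermal and mucosal keratins 7 were measured, 5 higher and 2 lower, with a median of 0.03 that turned to -0.06 with that correction and -0.06 without sham array 5, and was 0.08 without sham array 3. On slides 1, 2 and 4 alone this median was -0.24, -0.19 and 0.35. Krt24 had -0.41 (interval -1.37 to 0.54), and Krt9, a keratin of palms and soles, had 0.39 (interval -0.71 to 1.499).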

How the data were processed

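Skin RNA was hybridised to 1-colour Agilent arrays. Agilent Feature Extraction 10.7.3.1 was the authors' scanner software, per the file headers, and the deposited signals are fluorescence intensity on a linear scale, background-subtracted within each array. Spot quality flags, of another unit, are as deposited. The deposited value table holds log2 values of 14853 probes, centred to a median of 0 per probe, and its scaling step is not given in the sources used here. This table, which holds no Krt2, was an alternative.

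For 30367 probes unflagged spots were averaged and the log2 processed signal was taken relative to the array's 75th percentile. Kept probes were well above background on at least 8 arrays. Where a gene had several probes, the brightest on average stood for it. The group test was limma (version 3.58.1, R version 4.3.3) over all kept probes. Correlations had two-sided permutation tests with 100000 resamples. Symbols came from RefSeq for GRCr8, used for names and promoters only. The fit and the permutation test were tested on simulated data.

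The members, lists and rules were chosen with earlier results of these data known. Named genes were all members, the 2 genes of smallest p in each list, the 4 genes most like Krt16, Krt2 and Krt14, and single genes of a marker list that a member moved with. Alternatives were other scalings, normexp with an offset of 50 (on the median signal, since the files give no mean), other filters on dim probes, slide as a block or alone, array weights, a keratinocyte score, and leaving out each array.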

Additional observations from a re-analysis of the deposited data

Results flagged for a closer look

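One value stood apart from its group. Krt1 on sham array 3 was 6.79 on the log2 scale relative to the 75th percentile, and its gap to the next sham array was 0.538 of the whole range of the 8 sham arrays, above the limit of Dixon's rule. It was the only one of 18 groups of member values past that limit, and chance flags about 5% of such groups. On the same array Krt14 and Krt15 were also the lowest of the sham arrays, at 6.95 and 5.78, and the hair shaft, inner root sheath and adipocyte scores were the highest of all 17 arrays, at 3.03, 2.33 and 1.39. The simple epithelial keratin score was also the highest of all, at 0.62, and the skeletal muscle score was the highest of the sham arrays, at 4.76. Without this array the difference of Krt1 between exposed and sham skin was -0.17 and that of Krt15 was -0.28. The part of these tissues in this value was not tested.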

How the results depend on the processing

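Under every alternative fitted across probes, slides 1, 2 and 4 alone and each array left out included, 0 probes passed the adjusted threshold of limma between exposed and sham arrays. Slide 3, with 1 array per group, allowed no such fit. The count at an unadjusted p under 0.05 was 579 in the deposited value table, which holds fewer probes, 543 on slide 1 alone, with fewer arrays, and 680 to 1354 with 1 array left out. Between slides it was 2774 when dim probes were tested too, a larger set than the 20710 kept probes, of which 1844 had such a p. The differences of Krt15, Krt2, Krt6c, Krt16 and Krt17 kept their sign under every scaling, background correction, filter, block, weight and covariate tried. With the keratinocyte score as a covariate, Krt16 was 1.11 and Krt6c 0.442, with limma unadjusted p under 0.05 and adjusted p of 0.993. In that fit 813 of 20710 probes had such an unadjusted p. So did Krt2 without exposed array 4 (825 probes in that fit) and Krt15 without sham array 3 (1354 probes). Krt16 and Krt6c did without exposed array 5 (902 probes) or sham array 1 (961), and Krt16 without sham array 8 (769). The smallest limma adjusted p among these was 0.745. Slide 4 alone, which holds 1 exposed array, is not in this list, and Krt2 was -0.783 there. Krt5 turned to 0.0363 (quantile scaling), 0.0097 (median scaling), 0.0079 (normexp), 0.044 (normexp with quantile scaling), 0.0244 (slide as a block), 0.0145 (array weights), 0.0355 (value table) and 0.0338 (keratinocyte score as a covariate). Krt14 turned to 0.0392 with quantile scaling, 0.0384 with normexp and quantile scaling and 0.0307 in the value table, and Krt1 to 0.0447, 0.0277 and 0.0416. Krt80 turned to 0.0211 with slide as a block. On slide 1 Krt17 was -0.0407. On slide 2 Krt5 was 0.146, Krt14 0.0911, Krt15 0.0635, Krt1 0.29, Krt6c -0.0957 and Krt80 0.0243. On slide 3 Krt2 was 0.374, Krt17 -0.0020 and Krt80 0.518, and on slide 4 Krt5 was 0.105. With 1 array left out Krt5 ran from -0.0421 to 0.0309, Krt1 from -0.173 to 0.0008 and Krt80 from -0.133 to 0.0201. The causes were not tested.

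Of the correlations, Krt5 with Krt15 was 0.481 under quantile scaling, 0.476 with normexp and quantile scaling, 0.446 without the 2 farthest arrays, 0.501 on slide 2 and 0.448 to 0.646 with 1 array left out. Krt14 with Krt15 was 0.40, 0.432 and, on slide 2, 0.578, and 0.541 to 0.718 with 1 array left out. Krt1 with Krt2 turned to 0.134 without the 2 farthest arrays and 0.0086 on slide 2, and ran from -0.179 to 0.0902. Krt5 with Krt16 ran from 0.186 to 0.605. On slide 2, with 6 arrays, Krt6c with Krt16 was 0.885, Krt6c with Krt17 0.581 and Krt16 with Krt17 0.729. No paired analysis was possible because the labels carry no replicate numbers that exposed and sham arrays share.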

Other observations

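Many keratins outside the members varied more over the arrays than Krt16, whose SD was 1.15. Among the hair follicle keratins Krt27 of the inner root sheath had the largest SD, 3.48, and Krt33a of the hair shaft had 3.27. Both were well above background on 16 arrays. Krt27 ran from -8.18 over a median of 5.27 to 6.42, and Krt33a from -8.05 over 2.12 to 5.18. Very low values thus widen these SDs, and the SDs without the lowest array were not computed. Among the other epidermal and mucosal keratins Krt75, a keratin of the companion layer of the hair follicle, had an SD of 1.57. Krt9, at 1.13, lay just below Krt16. Krt75 differed by 0.40 between exposed and sham arrays (interval -1.14 to 1.94, limma adjusted p = 0.985). Krt75 and Krt33a were chosen after their values were seen.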
